A study of Drosophila melanogaster with 2 samples.

Results

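The beat, dpr and side genes of Drosophila melanogaster encode cell surface and secreted proteins of the immunoglobulin superfamily. They were taken from the deposited table of gene expression by symbol, as each symbol that starts with beat- or with dpr and a digit, together with side. This gave 34 of the 13623 genes of the table, namely 14 beat genes, 19 dpr genes and side. The founding dpr gene is listed in the table without a digit and is therefore outside the rule, and dpr21 was not analysed here. The table holds nuclear RNA-seq of 2 libraries, 1 of nuclei of neural stem cells (NSCs) and 1 of neuronal nuclei, and the question it addresses is how expression changes as NSCs differentiate. NSC nuclei came from embryos of 5 to 7 h after egg laying. Their self-crossed parents carried Sca-Gal4/cyo together with UAS-3xFLAG-blrp-mCherry-RanGap. Neuronal nuclei came from embryos of 12 to 14 h that carried Elav-Gal4 and the same UAS transgene. In both strains a GAL4 driver, under the scabrous (Sca) or the Elav promoter, switches on a tagged RanGap protein at the nuclear envelope, and tagged nuclei are pulled from homogenized whole embryos with anti-Flag beads. This approach is called INTACT, and the transgene also carries the biotin ligase BirA. Each library pools many embryos and all cells in which its driver was active. Cell type, embryo age and driver line differ together between the libraries and cannot be told apart.

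These genes are known for the wiring of the fly nervous system. Side is a transmembrane protein shown on the route and target muscles of motor axons, and Beat-Ia on the motor neuron is its receptor; without either, motor axons fail to leave their bundle and miss their muscles. The other Beat proteins are relatives of Beat-Ia, and several of them bind relatives of Side. Dpr proteins, named after a defective proboscis extension response to salt in the mutant of the founding gene, carry a pair of immunoglobulin domains and bind another family, the DIPs (Dpr-interacting proteins). Individual neurons express different combinations of Dprs and DIPs, and matching pairs contribute to the choice of synaptic partners and to neuron survival. In bulk libraries such as these, a few cells with much RNA of a gene and many cells with little cannot be told apart.

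Values are FPKM, that is, fragments for each kilobase of transcript and each 1000000 mapped fragments, so levels can be compared between genes of different length. There was 1 library per group, so every difference below is between these libraries and has no replicate check. From the whole-fragment steps of low values the depth was estimated at 65.1 M fragments (M, 1000000) for NSCs and 69.35 M for neurons. Over all genes the median was 5.28 FPKM in NSCs and 8.76 in neurons. The labels were checked against marker lists. Of 8 NSC markers, 6 were lower in the neuron library, and their summed level was 505 FPKM in NSCs and 202 in neurons. All 7 neuronal markers found in the table were higher in the neuron library, with 69.7 FPKM in NSCs and 489 in neurons, although elav itself was already 46.5 FPKM in NSCs. Markers of other tissues were present too, although the study scored isolated nuclei and reported a high purity for both cell types. The study also compared tissue-specific gene sets within each cell type by expression and histone marks. It reported neuronal genes as expressed significantly above genes of other tissues in neuronal nuclei, and NSC genes likewise in NSC nuclei. All 8 muscle markers were higher in the neuron library (766 and 4093 FPKM summed), as were 3 of 5 glial markers (180 and 293 FPKM), 3 of 4 hemocyte markers (45.3 and 304 FPKM) and 2 of 3 tracheal markers (79.5 and 906 FPKM). Single genes weighed heavily in the last 2 sums, namely proPO-A1 (3.59 and 165 FPKM) for hemocytes and Osi6 (42.9 and 870 FPKM) for trachea. The tracheal marker btl was lower in the neuron library (16.5 and 5.72 FPKM), and the hemocyte marker Hml was below 1 FPKM in both libraries. No marker was at 0 in either library. The part of these other cells in the values below was not tested.

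Of the 34 genes, 26 were below 1 FPKM in NSCs. All 34 had a higher FPKM in the neuron library, compared with 57.9% of the 13021 genes above 0 in at least 1 library. The summed level of the 34 genes was 41.7 FPKM in NSCs and 184 in neurons, a ratio of 4.40. At a detection level of 1 FPKM, 8 of the 34 genes were detected in NSCs and 26 in neurons. Of all 13623 genes, 8957 were detected in NSCs and 9845 in neurons at the same level. The 8 detected in NSCs were all detected in neurons as well, 18 genes were detected in neurons alone, and 8 stayed below 1 FPKM in both libraries. Of all 4666 genes below 1 FPKM in NSCs, 25.7% reached 1 FPKM in neurons, whereas 18 of the 26 such genes here did. The 4666 include 1617 genes at 0 FPKM in NSCs and are not matched to the 34 genes. Shares among genes of similar length and level are given further below. No gene of the 34 was listed at 0. In the plot of FPKM by gene, the dots of the neuron library lie to the right of those of the NSC library for each gene, and those of dpr6 nearly coincide.

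**Figure D1:**
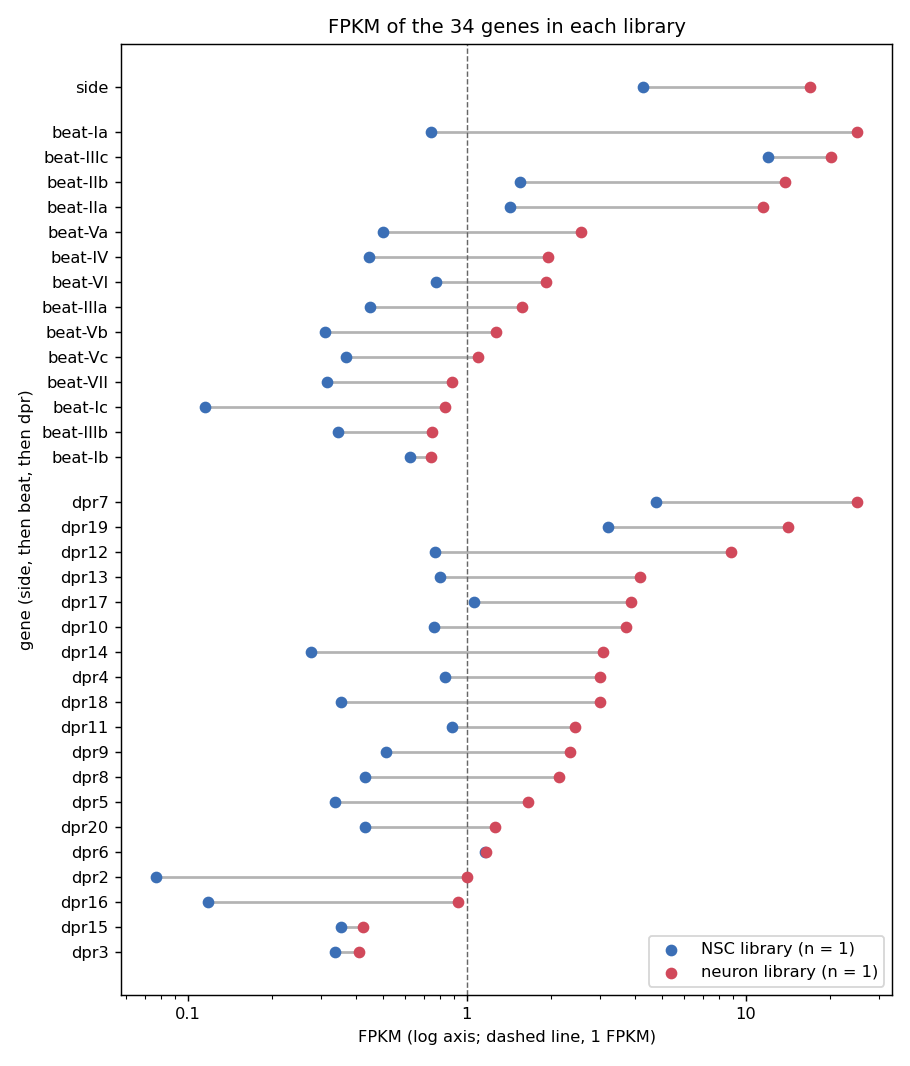
FPKM of side, the 14 beat genes and the 19 dpr genes on a log axis, with 1 dot per library (blue, NSC; red, neuron) joined by a line; the dashed line marks 1 FPKM. Of the 34 genes, 8 lie at or above 1 FPKM in NSCs and 26 in neurons, and the longest line is that of beat-Ia, from 0.743 to 25.0 FPKM.

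The number of genes past 2-fold depended on how low values were treated. On the scale of log2(FPKM + 1), 17 of the 34 genes reached 2-fold higher in neurons and none reached 2-fold lower. The same rule called 20.1% of all 13623 genes higher and 12.4% lower. The median change of the 34 genes on this scale was 1.01, compared with 0.07 over all genes. The added 1 FPKM shrinks the change of low genes, and most of these genes were low in NSCs. By the plain ratio of FPKM, 29 of the 34 genes were 2-fold or more higher, compared with 32.2% of the 11886 genes above 0 in both libraries. The median ratio was 4.39 over the 34 genes and 1.13 over those 11886 genes. The 12 genes that passed by the ratio alone had between 0.0771 and 0.883 FPKM in NSCs. There were 12 genes with a ratio of 5 or more, 17 with a ratio from 2 to 5, and 5 with a ratio under 2.

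The depth of the libraries sets how well each ratio is known. Fragment numbers were estimated from the depth and the merged exonic length of each gene. The 34 genes rested on 14 to 3206 fragments in NSCs (median 126.5) and on 84 to 13553 in neurons (median 520.5). For genes with more than 1 annotated transcript these numbers may be too high, which makes the intervals too narrow. Exact 95% intervals of the ratio were computed from these fragment numbers, and they cover counting error only, not variation between embryo collections or preparations. The interval lay above 1 for 30 of the 34 genes, compared with 47.5% of the 12857 genes with a length and at least 1 fragment, and below 1 for none, compared with 35.8%. It lay wholly above 2 for 28 of the 34, compared with 26.5%. These shares are not matched for length or level, and no matched share was computed for the intervals. The 4 genes whose interval held 1 were beat-Ib, dpr3, dpr6 and dpr15, so for them no difference was detectable at this depth.

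**Figure D2:**
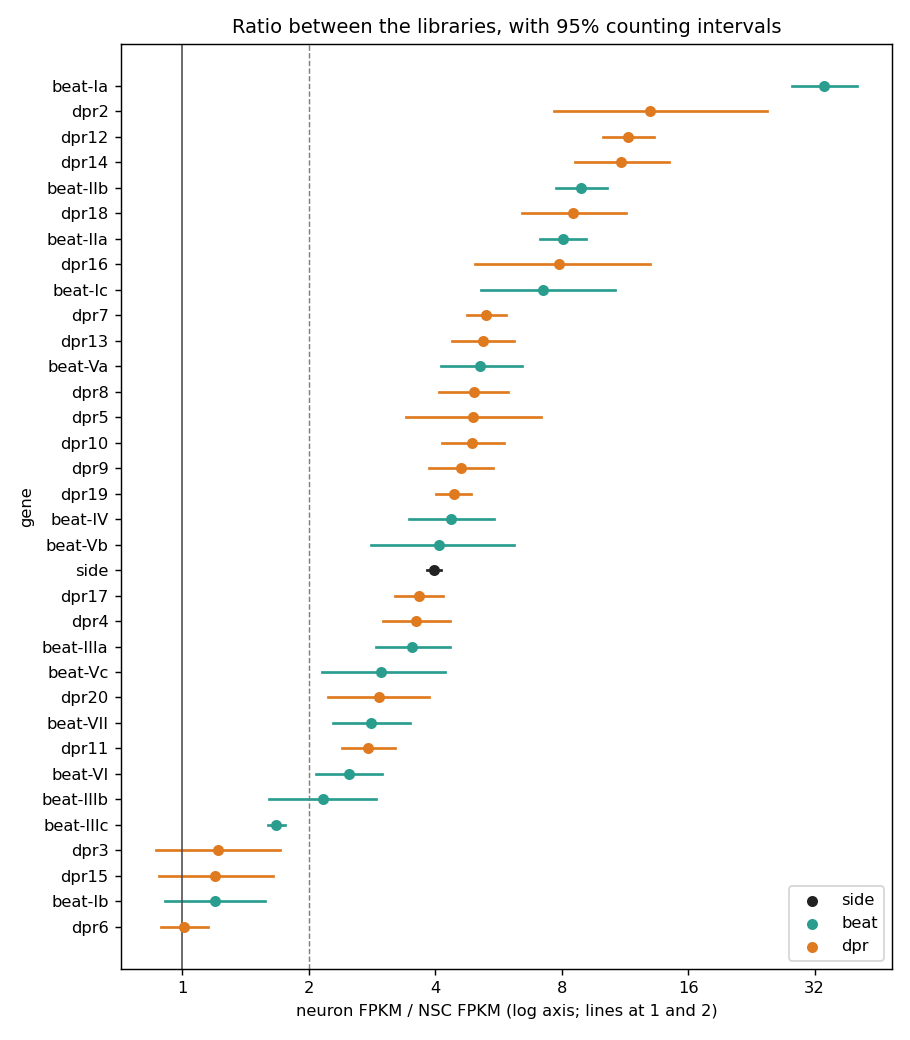
Ratio of neuron to NSC FPKM for each of the 34 genes on a log axis, sorted from the highest (beat-Ia, 33.7) to the lowest (dpr6, 1.01); bars are exact 95% counting intervals from estimated fragment numbers, and the lines mark ratios of 1 and 2. The bars of dpr3, dpr15, beat-Ib and dpr6 cross 1, and the bar of beat-Ia lies to the right of all others.

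The side gene (FBgn0016061, arm 3R) was among the more highly expressed of the 34 genes in both libraries. It had 4.27 FPKM in NSCs and 17.0 in neurons, a ratio of 3.97 with a counting interval of 3.82 to 4.13. Ranked among all genes of a library, this was percentile 47.7 in NSCs and percentile 62.9 in neurons. With 11723 bp of exonic sequence, it had the most estimated fragments of the 34 genes in both libraries. Side is known from muscle and other tissues on the path of motor axons as well as from neurons, and the ratio of summed FPKM of the 8 muscle markers was 5.34. The part of muscle RNA in the level of side was not tested.

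Among the 14 beat genes, 5 were higher in neurons by at least 2-fold on the log2(FPKM + 1) scale and 12 by the plain ratio. The shares over all genes were 20.1% and, of those above 0 in both libraries, 32.2%. Among the 20% of genes with the longest genomic span they were 40.3% and 48.3%. The median of the beat genes was 0.476 FPKM in NSCs and 1.75 in neurons. The difference was largest for beat-Ia (FBgn0013433, arm 2L), the motor axon receptor of Side. It had 0.743 FPKM in NSCs and 25.0 in neurons, a ratio of 33.7 with a counting interval of 28.3 to 40.4. It was thus below side in the NSC library and above it in the neuron library. No other gene of the 34 had an interval that reached this one, the next highest ratio being 13.0 for dpr2.

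The close relatives of beat-Ia differed from it. For beat-Ib the level was 0.624 FPKM in NSCs and 0.745 in neurons, a ratio of 1.19 whose counting interval of 0.912 to 1.58 held 1. For beat-Ic it was 0.115 and 0.834 FPKM. Both therefore stayed below 1 FPKM, and beat-Ic had a ratio of 7.24 (5.14 to 10.7) that rested on only 35 estimated fragments in NSCs.

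The beat-II genes, whose products bind the Side relative Side-IV, resembled each other. The level of beat-IIa was 1.43 FPKM in NSCs and 11.5 in neurons, a ratio of 8.04 (7.09 to 9.13). That of beat-IIb was 1.56 and 13.8 FPKM, a ratio of 8.89 (7.77 to 10.3). The counting intervals of these ratios overlapped. After beat-Ia, they had the highest ratios of the beat genes.

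The highest NSC level of all 34 genes was that of beat-IIIc (FBgn0032629, arm 2L). It had 12.0 FPKM in NSCs, 28.8% of the summed level of the 34 genes there, and 20.1 FPKM in neurons. Its ratio of 1.67 (1.60 to 1.75) was above 1 beyond counting error and below 2-fold. Its relatives were far lower in both libraries, with 0.449 and 1.58 FPKM for beat-IIIa and 0.346 and 0.748 FPKM for beat-IIIb. The values of beat-IIIa are uncertain, since in the reference annotation all of its exonic sequence is shared with another gene on the same strand, CG34106, and the table lists CG42757, now part of beat-IIIa, apart from it.

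The remaining beat genes were between 0.311 and 0.773 FPKM in NSCs and between 0.888 and 2.57 FPKM in neurons. The beat-V genes, whose products bind Side-VI, had ratios of 5.12 (beat-Va), 4.08 (beat-Vb) and 2.97 (beat-Vc), with beat-Va the highest of them in both libraries at 0.502 and 2.57 FPKM. The level of beat-IV was 0.447 FPKM in NSCs and 1.95 in neurons. That of beat-VI, whose product binds Side-II, was 0.773 and 1.92 FPKM, and that of beat-VII 0.315 and 0.888 FPKM. All 6 of these had counting intervals above 2, and only beat-VII stayed below 1 FPKM in neurons.

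Among the 19 dpr genes, 11 were higher in neurons by at least 2-fold on the log2(FPKM + 1) scale and 16 by the plain ratio. The shares to set beside these are again 20.1% and 32.2%, or 40.3% and 48.3% among the longest 20% of genes. The median of the dpr genes was 0.511 FPKM in NSCs and 2.45 in neurons. Only 3 of them exceeded 5 FPKM in neurons, and these were dpr7, dpr19 and dpr12. The highest was dpr7 (FBgn0053481), which lies on chromosome 4 and was 4.76 FPKM in NSCs and 25.1 in neurons, a ratio of 5.27 (4.75 to 5.88). Its level in neurons was close to that of beat-Ia. The second was dpr19 with 3.20 FPKM in NSCs and 14.1 in neurons, a ratio of 4.42 (4.02 to 4.87). Both were thus already detected in NSCs, as were dpr17 with 1.06 FPKM and dpr6 with 1.16 FPKM.

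In contrast, dpr12, which acts with DIP-delta in the regrowth of mushroom body axons, was below 1 FPKM in NSCs. It had 0.770 FPKM there and 8.87 FPKM in neurons, a ratio of 11.5 (10.1 to 13.2). Similar ratios were found at lower levels for dpr14, with 0.277 and 3.07 FPKM (ratio 11.1, 8.62 to 14.4), and for dpr18, with 0.353 and 3.01 FPKM (ratio 8.52, 6.43 to 11.4). The highest ratio of a dpr gene was that of dpr2, whose level was 0.0771 FPKM in NSCs and 0.999 in neurons. Only 14 estimated fragments supported its NSC level, and the counting interval of its ratio of 13.0 ran from 7.69 to 24.6. On the log2(FPKM + 1) scale its change was 0.89, below 2-fold. Likewise dpr16, with 0.118 and 0.929 FPKM, had a ratio of 7.86 (4.96 to 13.0) that rested on 21 estimated fragments in NSCs.

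A further group of dpr genes lay at intermediate ratios. Apart from dpr19, ratios from 3.60 to 5.18 were found for dpr13 (0.802 and 4.16 FPKM), dpr8 (0.431 and 2.13 FPKM), dpr5 (0.337 and 1.66 FPKM), dpr10 (0.760 and 3.71 FPKM), dpr9 (0.511 and 2.35 FPKM), dpr17 (1.06 and 3.87 FPKM) and dpr4 (0.837 and 3.01 FPKM), in that order. Of these, dpr10 is known as a partner of DIP-alpha in muscle innervation. The lower ratios of dpr20 (2.94, from 0.431 to 1.27 FPKM) and dpr11 (2.77, from 0.883 to 2.45 FPKM) also had counting intervals above 2. For dpr4, 15.7% of the exonic sequence overlaps an antisense RNA gene in the reference annotation, and since strand was not stated its reads cannot be assigned to one or the other.

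The remaining dpr genes, dpr3, dpr6 and dpr15, did not differ beyond counting error. The level of dpr6, another partner of DIP-alpha, was 1.16 FPKM in NSCs and 1.18 in neurons, a ratio of 1.01 (0.888 to 1.15). With about 463 and 498 estimated fragments, a difference of 2-fold in either direction lay outside this interval. Its direction is not settled, since scaling the libraries to their upper quartiles gave a log2(FPKM + 1) change of -0.0016. The levels of dpr3 (0.337 and 0.409 FPKM) and dpr15 (0.353 and 0.423 FPKM) were below 0.5 FPKM in both libraries, with ratios of 1.21 (0.867 to 1.70) and 1.20 (0.878 to 1.64). They were the only genes of the 34 below 0.5 FPKM in neurons.

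Next, genes of known binding partners were examined from a list of side relatives and DIPs. The 7 side paralogs were all higher in the neuron library, and 6 of them at least 2-fold on the log2(FPKM + 1) scale. Over all genes the shares were 57.9% (of those above 0 in a library) and 20.1%. These shares are not matched for length or level. The highest in neurons was side-IV, listed as CG14372, with 2.59 FPKM in NSCs and 42.3 in neurons, a ratio of 16.3. Its binding partners beat-IIa and beat-IIb thus differed in the same direction at lower levels. The paralog side-V, listed as CG34371, stood apart with the highest level of these genes in NSCs, 17.3 FPKM, and 29.3 FPKM in neurons. For side-VI the levels were 0.375 and 2.32 FPKM, and those of its partners beat-Va, beat-Vb and beat-Vc were of the same order. For side-II they were 0.460 and 3.10 FPKM, a ratio of 6.75 beside 2.49 for its partner beat-VI.

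The DIP genes were less uniform. Of the 11 genes of the list found in the table, 8 were higher in neurons, and 6 at least 2-fold on the log2(FPKM + 1) scale. The shares over all genes to set beside these are again 57.9% and 20.1%. DIP-alpha, listed as CG32791, had 3.48 FPKM in NSCs and 1.85 in neurons, a ratio of 0.532. It was thus lower in neurons, whereas its partner dpr10 was higher by a ratio of 4.89 and dpr6 was nearly equal. DIP-gamma had 0.444 and 2.15 FPKM, and its partners dpr11, dpr15, dpr16 and dpr17 had ratios of 2.77, 1.20, 7.86 and 3.66. DIP-delta had 0.296 and 1.52 FPKM, a ratio of 5.13 beside 11.5 for dpr12. The others lower in neurons were DIP-iota (0.367 and 0.191 FPKM) and cDIP (0.277 and 0.174 FPKM), a secreted leucine-rich repeat protein that binds many Dprs. DIP-iota and cDIP were below 1 FPKM in both libraries, and counting intervals were not computed for partner genes. The highest DIP gene in neurons was DIP-epsilon with 1.26 and 6.79 FPKM. A pair of genes in bulk RNA need not be expressed in cells that meet.

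**Figure D3:**
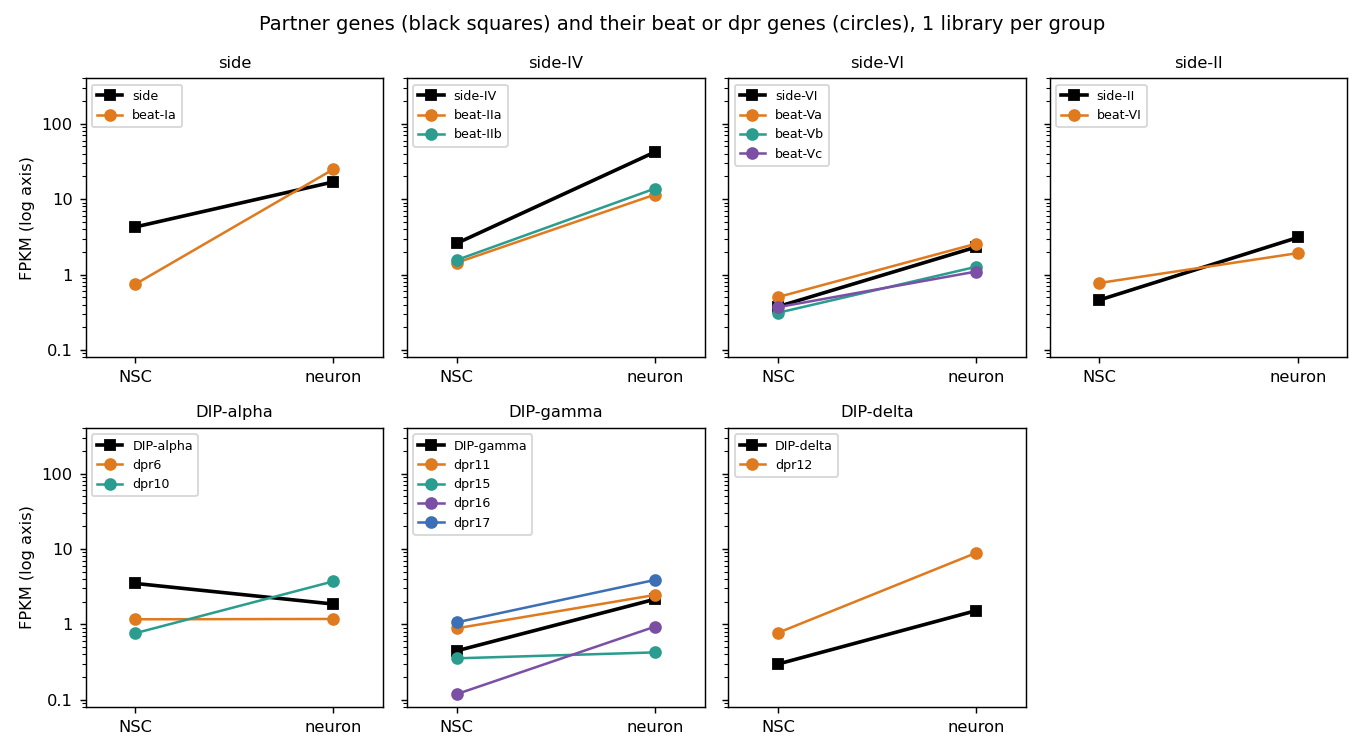
FPKM on a log axis in the NSC and the neuron library for 7 partner genes (black squares) and the beat or dpr genes known to bind their products (coloured circles), with 1 library per group. Lines go up from NSC to neuron in each panel except for DIP-alpha, from 3.48 to 1.85 FPKM, and the nearly level lines of dpr6 and dpr15.

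Since many of these genes arose by duplication, neighbouring genes were compared. Of the 34 genes, 17 lie in 7 groups with fewer than 10 protein-coding genes between one and the next. Within several groups the levels of neighbours differed widely. In the group of beat-Ib, beat-Ic and beat-Ia on arm 2L, neuron levels were 0.745, 0.834 and 25.0 FPKM. In the group of beat-IIIb, beat-IIIa and beat-IIIc on the same arm they were 0.748, 1.58 and 20.1 FPKM. On arm 3L, dpr6 was equal in both libraries within counting error while its neighbour dpr10 had a ratio of 4.89. On arm 3R, dpr17 had a ratio of 3.66 and its neighbour dpr15 a ratio of 1.20. Closer values on arm 3R were those of beat-IIa and beat-IIb, with 11.5 and 13.8 FPKM in neurons, and the adjacent dpr5 and dpr4, with ratios of 4.93 and 3.60 whose counting intervals overlapped. Only uniquely mapped reads were used, so reads shared by related genes are not in these values.

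Finally, the 34 genes were set beside genes of similar length and level. They span 3.74 to 165 kb of the genome (median 32.8 kb), and 29 of them are among the longest 20% of all genes, above 6.50 kb. Of these long genes, 40.3% were higher in neurons by at least 2-fold on the log2(FPKM + 1) scale, compared with 14 of the 29. By the plain ratio 48.3% of those above 0 in both libraries were, compared with 24 of the 29. Most of them, 25 of 34, had from 0.1 to under 1 FPKM in NSCs. Of all 2352 genes in that band 54.0% had a ratio of 2 or more, compared with 22 of the 25. When both properties were combined, 82.0% of 462 genes had a ratio of 2 or more, and 19 of the 22 genes here did, a share near that background. A higher level in the neuron library was therefore common among long genes that were low in NSCs and is not particular to these families. Across the 34 genes themselves, Spearman's correlation of the ratio with span was -0.28 and that of NSC with neuron FPKM was 0.73. The genes share their libraries and these values carry no test.

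**Figure D4:**
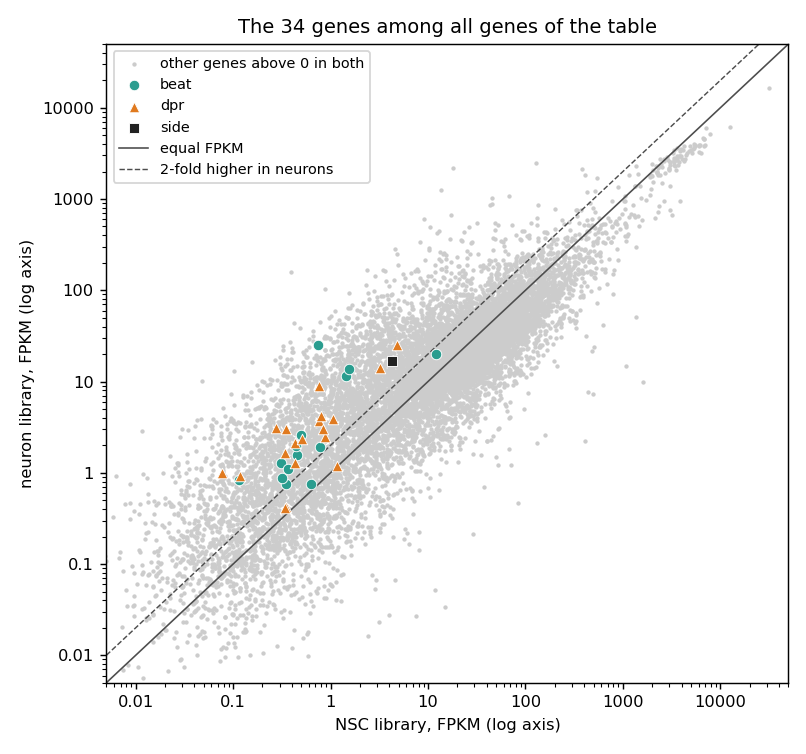
FPKM in the NSC library (x axis) and the neuron library (y axis), both on log axes that start at 0.005 FPKM, for all genes above 0 in both libraries (grey) and for the beat (circles), dpr (triangles) and side (square) genes; the solid line marks equal levels and the dashed line 2-fold higher in neurons. Of the 34 genes 29 lie on or above the dashed line, as do many other genes.

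Ranked by neuron FPKM, dpr7, beat-Ia, beat-IIIc, side and dpr19 made up 55.1% of the summed level of the 34 genes. In NSCs the 5 highest were beat-IIIc, dpr7, side, dpr19 and beat-IIb, with 61.8% of the sum. The libraries therefore had 4 of the 5 highest genes in common, and beat-Ia entered the group in neurons. The share of the beat genes in the sum was 47.9% in NSCs and 45.7% in neurons, and that of the dpr genes 41.8% and 45.0%. Relative to all genes of a library the families remained low, with a median percentile of 28.2 in NSCs and 34.5 in neurons.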

How the data were processed

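Nuclear RNA was sequenced on an Illumina HiSeq instrument. The authors aligned reads to FlyBase r5.43 transcripts with TopHat 1.3.1, passed uniquely mapped reads to Cuffdiff 1.3.0, and deposited an FPKM value for each gene in each library. The read length, the strandedness and the number of reads were not given in the sources used here. The labels describe cross-linked embryos and the study's methods embryos without crosslinking, and this was not settled. The table repeats its header line before each gene row; these lines were dropped, and all values were numbers of 0 or more.

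Groups came from the sample labels. With 1 library per group no test and no p-value were computed. The log2 change was log2((neuron FPKM + 1)/(NSC FPKM + 1)) and understates the change of low genes; a value of 1 or more was called 2-fold. Depth was estimated from 6078 genes with 1 annotated transcript of over 500 bp, where FPKM times exonic length less 200 bp moves in whole steps (periodicity, from 0 to 1, of 0.789 in NSCs and 0.812 in neurons; 0.212 and 0.217 without the 200 bp). Fragment numbers are estimates, since lengths came from Ensembl release 115 (BDGP6) and not from the authors' dm3 annotation. No coordinates are therefore given. Lengths were also those of all exons of a gene merged, which can exceed the length of the transcripts present. Of the table's symbols 13465 matched that annotation, 11036 of them directly, and all 34 members did. Ratio intervals were Clopper-Pearson. Scripts ran in Python 3.11.15 with scipy 1.17.1 and were tested on simulated data.

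The members, gene lists and thresholds were chosen with earlier results of these data known. Named in full were side, the highest and lowest changes and levels, members of known pairs and members whose call depended on a setting; each other member is given with its values or range. Sequences and protein comparisons were not used here. Alternatives were pseudocounts of 0.1 and 5, TPM, median and upper quartile scaling, and filters on low FPKM. The plain ratio and the shortest transcript length were added after the data were seen.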

Additional observations from a re-analysis of the deposited data

How the results depend on the processing

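All 34 genes stayed higher in neurons under each pseudocount and scaling alternative, except dpr6, whose log2 change of 0.0082 became -0.0016 with upper quartile scaling. None was 2-fold lower under any of them. The number at least 2-fold higher, 17 as reported, was 28 with a pseudocount of 0.1. It was 29 with none and 7 with a pseudocount of 5, which pulls low genes toward 0. The share over all genes was 20.1% beside the 17. Beside the 29 it was 32.2% of the genes above 0 in both libraries. No share over all genes was computed for the other settings of this paragraph. With fewer genes compared the number was 7 of 8 (at least 5 FPKM in a library) and 6 of 8 (at least 1 FPKM in both). The median log2 changes under these filters were 2.27 and 1.81. TPM scaling, which adds 0.27 to the log2 ratio of every gene, gave 21. The median log2 change of 1.01 fell below 1 with a pseudocount of 5 (0.37) and with upper quartile scaling (0.998). The number detected in NSCs was 33 at 0.1 FPKM and 1 at 5 FPKM, and in neurons 8 at 5 FPKM. Of the 34 genes, 11 kept their direction and their side of the 2-fold threshold under each pseudocount and scaling, plain ratio included. The number of counting intervals that exclude 1 stayed at 30 with the shortest annotated transcript length. Intervals above 2 were not recounted with that length. No paired analysis was possible because there was 1 library per group, and no library could be left out. Among genes below 1 FPKM in NSCs, the fewest estimated NSC fragments were 14, 21, 34 and 35, for dpr2, dpr16, beat-Vb and beat-Ic. The most were 256 for dpr11 and 226 for dpr12.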

Other observations

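Other surface or secreted immunoglobulin genes covered a wide range of levels. The irre cell recognition module (rst, kirre, sns and hbs) holds adhesion genes of muscle fusion and sensory patterning. Their levels were 6.73 to 25.6 FPKM in NSCs and 29.1 to 56.4 FPKM in neurons. All 4 were at least 2-fold higher in neurons on the log2(FPKM + 1) scale. By the same rule 20.1% of all genes were higher and 12.4% lower. Of 13 further neural immunoglobulin genes, 9 were at least 2-fold higher and Ama, a secreted adhesion protein, was at least 2-fold lower, with 428 and 110 FPKM. Among them klg had 4.27 and 90.4 FPKM, Fas3 had 28.6 and 335 FPKM, and Fas2, whose adhesion Beat-Ia is known to counteract in motor axon bundles, had 69.6 and 192 FPKM. The median of these 13 genes in neurons was 110 FPKM, compared with 2.24 FPKM over the 34 beat, dpr and side genes.

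The founding dpr gene, outside the symbol rule, had 1.01 FPKM in NSCs and 6.84 in neurons, a ratio of 6.79 that lies within the range of the other dpr genes. It would have ranked after dpr7, dpr19 and dpr12 in neurons.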
